A study of Mus musculus with 18 samples.

Results

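The genes described here encode the proteins of the mitochondrial ribosome. They were chosen by symbol, as Mrpl (large subunit) or Mrps (small subunit) followed by a number, and each was read from 1 probe set, the brightest on average over the 18 arrays among those that carry its symbol alone. Of 18193 genes with such a probe set, 76 were members, 47 of the large subunit and 29 of the small subunit. Expression was measured with Affymetrix arrays in cerebella of C57BL/6 mice. The 118Q group was homozygous for the MPI 118Q knock-in, the Ctm group for the Sca6 CtmKO allele and the 11Q group for the MPI 11Q knock-in, and each was set against wild-type littermates of its own line, with 3 arrays in each of the 6 groups. The study was about spinocerebellar ataxia type 6 and the last coding exon of Cacna1a, which encodes the Cav2.1 calcium channel. An age of 6 weeks is labelled for the 118Q KI and Ctm KO mice, and no age was used here for their WT littermates or for either group of the 11Q line. In what follows knock-in is written KI, knockout KO and wild type WT, and changes are mutant minus WT on the log2 scale with the standard error (SE) of the model.

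The mitochondrial ribosome sits in the matrix and translates the few messages of mitochondrial DNA, all of them for subunits of the oxidative phosphorylation complexes. Its ribosomal RNAs come from mitochondrial DNA, whereas its proteins are encoded in the nucleus, made in the cytosol and imported. Some of these proteins descend from bacterial ribosomal proteins and others were added in mitochondria. The symbols do not always tell where a protein sits: Mrps18a and Mrps30 are built into the large subunit, and Mrps36 is now known as a component of the 2-oxoglutarate dehydrogenase complex. The genes are spread over the genome, and many have promoters of the kind that ETS factors such as GABP, NRF1 and YY1 bind.

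The promoters of 4 members are shown because the results turn on these genes: Mrpl57, Mrpl14 and Mrps18c passed the test in a line, and Mrps7 was among the members with the smallest p for a difference between lines. Each is the stretch from 250 bases before to 50 bases after the gene's start in RefSeq, build GRCm38.p6, written 5′ to 3′ on the strand of the gene, which is the plus strand for all of them. Capitals mark a match to CCGGAAG (the core bound by ETS factors, on either strand) or to AAGATGGC (the core bound by YY1). The windows are chr14:57825989-57826288 for Mrpl57, chr17:45686099-45686398 for Mrpl14, chr5:100798509-100798808 for Mrps18c and chr11:115603890-115604189 for Mrps7.
Mrpl57: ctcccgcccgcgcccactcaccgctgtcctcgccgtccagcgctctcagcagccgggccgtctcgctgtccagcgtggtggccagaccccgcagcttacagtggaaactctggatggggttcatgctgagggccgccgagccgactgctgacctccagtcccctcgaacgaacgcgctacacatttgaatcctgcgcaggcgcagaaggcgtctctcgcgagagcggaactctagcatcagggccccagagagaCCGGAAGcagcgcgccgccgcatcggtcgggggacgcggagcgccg
Mrpl14: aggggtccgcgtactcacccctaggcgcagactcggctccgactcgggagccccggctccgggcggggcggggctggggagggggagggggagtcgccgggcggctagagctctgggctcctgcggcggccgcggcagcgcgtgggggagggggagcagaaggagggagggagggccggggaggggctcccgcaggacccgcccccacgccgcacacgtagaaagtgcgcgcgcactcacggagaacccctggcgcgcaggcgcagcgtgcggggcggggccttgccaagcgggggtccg
Mrps18c: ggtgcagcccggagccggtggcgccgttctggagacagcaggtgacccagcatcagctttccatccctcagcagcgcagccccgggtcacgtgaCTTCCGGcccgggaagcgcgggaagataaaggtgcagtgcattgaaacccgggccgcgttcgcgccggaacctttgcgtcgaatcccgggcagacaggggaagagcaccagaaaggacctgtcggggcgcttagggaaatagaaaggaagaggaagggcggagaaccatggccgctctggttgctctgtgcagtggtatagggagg
Mrps7: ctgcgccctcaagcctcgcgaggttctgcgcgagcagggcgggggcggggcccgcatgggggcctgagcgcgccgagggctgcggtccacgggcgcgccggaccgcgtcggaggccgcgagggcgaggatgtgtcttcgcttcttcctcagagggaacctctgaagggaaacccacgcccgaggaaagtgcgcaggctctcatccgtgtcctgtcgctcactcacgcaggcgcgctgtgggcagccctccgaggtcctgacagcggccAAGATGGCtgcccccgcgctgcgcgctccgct

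The window of Mrpl57 held CCGGAAG from base 255, just after the start. That of Mrps18c held it on the other strand from base 95, and that of Mrps7 held AAGATGGC from base 269. Mrpl14 had no match to either motif in these letters. All 76 members matched a RefSeq gene by identifier and 67 had a promoter window, 73 windows in all. CCGGAAG was found in 34.2% of the member windows, against 8.86% of all 32851 windows and 13.0% of the windows of genes on the array. AAGATGGC was found in 16.4% of the member windows, against 2.75% of all windows and 3.39% of those of genes on the array. The consensus site of NRF1 was found in 4.11% of the member windows, against 0.971% and 1.54%. Both strands were searched, and the matches are a description of letters, not of binding. The 25 members with CCGGAAG had median changes of 0.20 in the 118Q line, -0.23 in the Ctm line and -0.066 in the 11Q line. The 42 members with a window and no CCGGAAG had medians of 0.17, -0.22 and -0.088 in the same order of lines, close to those with the motif.

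Array medians over all probe sets lay between 2.38 and 2.55, and arrays correlated pairwise at 0.973 to 0.995. The tissue label fitted the markers: the granule cell list averaged 9.64 to 10.1 and the Purkinje cell list 9.30 to 10.3 on the 18 arrays, whereas genes of the hindbrain outside the cerebellum averaged 1.69 to 3.40. Ctm WT arrays 2 and 3 stood apart from the other 16 in the Y-linked genes Eif2s3y (5.07 and 4.57, others 5.28 to 6.37) and Uty (2.83 and 2.84, others 3.17 to 3.74). The median changes in the Ctm line are also given without these arrays, which leaves Ctm WT array 1 alone in its group. In bulk tissue, fewer cells of a type and less RNA per cell cannot be told apart. The labels say only that replicates are separate samples, so p values measure the spread between these arrays.

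As a group, the mitochondrial ribosomal protein transcripts were high in the 118Q KI cerebellum and low in the Ctm KO cerebellum, and lay slightly low in the 11Q KI cerebellum. For each array, the median deviation of the 47 Mrpl genes from their own means over 18 arrays was taken. It was 0.23, 0.26 and 0.34 in 118Q KI, against 0.011, 0.097 and 0.091 in 118Q WT. It was -0.22, -0.18 and -0.28 in Ctm KO, against -0.019, -0.048 and 0.14 in Ctm WT. In both of these lines every mutant array lay outside the range of its WT littermates. In the 11Q line the medians were -0.094, -0.097 and -0.10 in KI, against -0.099, -0.071 and 0.11 in WT, so the groups overlapped and only WT array 3 stood well apart.

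The 29 Mrps genes also had their highest group in 118Q KI and their lowest in Ctm KO. Their median deviation was 0.20, 0.27 and 0.27 in 118Q KI, against -0.034, 0.064 and 0.12 in 118Q WT. It was -0.21, -0.17 and -0.23 in Ctm KO, against -0.055, -0.037 and 0.084 in Ctm WT. It was -0.079, -0.064 and -0.099 in 11Q KI, against -0.056, -0.057 and 0.13 in 11Q WT. Again the 118Q and Ctm mutants were clear of their littermates. The 11Q mutants lay below theirs by a narrow gap, with WT array 3 far above the other WT arrays. Over all genes the same deviation stayed between -0.044 and 0.055 on every array.

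**Figure D1:**
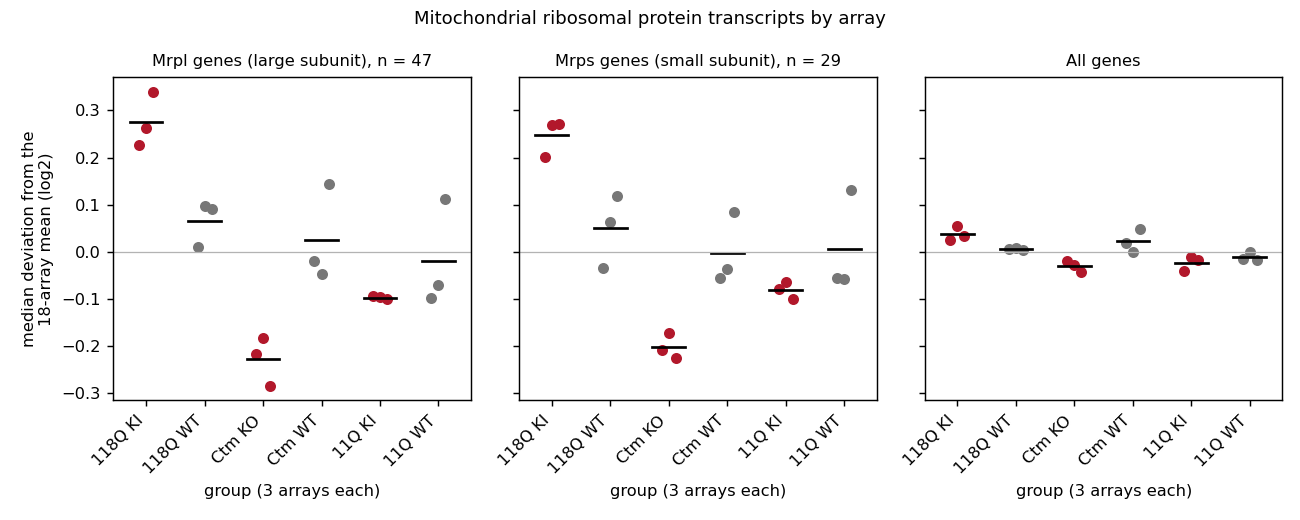
Median deviation of the Mrpl genes, the Mrps genes and all genes from their 18-array means (log2, vertical axis) on each array, by group; red points are mutant arrays, grey points WT arrays and bars the group means. The 118Q KI arrays lie highest and the Ctm KO arrays lowest in both subunits, and array 3 of the 11Q WT and Ctm WT groups is the highest of its group.

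The measure of RNA quality moved with the 118Q groups. It was taken as the excess of the 3′ over the 5′ signal of the beta-actin and Gapdh control probe sets on the log2 scale, and was 0.45 ± 0.030 (SD, n = 3) in 118Q KI and 0.55 ± 0.060 (SD, n = 3) in 118Q WT, with no overlap. It was 0.618 in Ctm KO and 0.614 in Ctm WT, and 0.674 in 11Q KI and 0.640 in 11Q WT. The arrays with the lowest difference among the Ctm WT (array 3, 0.548) and the 11Q WT (array 3, 0.501) were also the highest of their groups in the members. With RNA quality as a covariate the median change of the Mrpl genes was 0.15 in the 118Q line, -0.22 in the Ctm line and -0.055 in the 11Q line, and that of the Mrps genes 0.15, -0.22 and -0.081. Cell markers moved too in the 118Q line. The mean of 5 Purkinje cell markers was 9.53 ± 0.252 (SD, n = 3) in KI and 9.98 ± 0.0478 (SD, n = 3) in WT, with 3 of 5 called lower, and the mean of 6 microglia markers was 4.66 ± 0.253 (SD, n = 3) in KI and 4.10 ± 0.119 (SD, n = 3) in WT, with 2 of 6 called higher. The mean of 5 endothelial markers was 4.28 to 4.77 in KI and 4.75 to 5.11 in WT, with 2 of 5 called lower. In the Ctm line the microglia mean was 3.77 to 3.93 in KO and 3.96 to 4.16 in WT, wholly lower in KO. The mean of 5 granule cell markers was 10.09 ± 0.0293 (SD, n = 3) in KO and 9.995 ± 0.0393 (SD, n = 3) in WT, wholly higher in KO. Not every marker moved with the mean of its list. In the 118Q line 2 of 5 Purkinje cell markers had positive changes and 1 of 6 microglia markers a negative one. In the Ctm line 2 of 5 granule cell markers had negative changes and 2 of 6 microglia markers positive ones. The Purkinje cell mean was 10.19 ± 0.0335 (SD, n = 3) in KO and 10.17 ± 0.0796 (SD, n = 3) in WT. None of these markers passed limma's test in the Ctm line; the smallest adjusted p was 0.266, for C1qa. The part of RNA quality and of cell makeup in the members' changes was not tested beyond the covariate.

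In the 118Q line 3 members passed the test, all higher in KI, of 76 measured: Mrpl14, Mrpl57 and Mrps18c. Over all genes 0.808% were called higher and 0.731% lower (limma, adjusted p under 0.05 over 18193 genes). At an unadjusted p under 0.05, 29 members were higher and 0 lower, against 10.5% and 5.69% of all genes. The change was positive in 69 of the 76 members and negative in 7, against 58.7% and 41.3% of all genes, and the KI arrays lay wholly above the WT arrays in 32 members and wholly below in 0, against 12% and 6.11% of all genes. By subunit, the Mrpl genes had 45 of 47 positive changes, a median of 0.20 and 2 calls, and the Mrps genes 24 of 29 positive changes, a median of 0.17 and 1 call. The median was 0.040 over all genes and 0.057 over the brighter 50% of genes, to which all 76 members belong.

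Among the large subunit genes, Mrpl14 (probe set 1451307_at), the homolog of bacterial L14 at the subunit interface, was at 5.48, 5.82 and 5.74 in 118Q KI and at 5.37, 5.08 and 5.05 in 118Q WT. All KI arrays were above all WT arrays, though KI array 1 and WT array 1 came close. Mrpl14 rose by 0.51 (SE 0.113, adjusted p = 0.0340). Mrpl57 (1418137_at), a protein of the large subunit with no bacterial counterpart, was at 6.60, 6.64 and 6.62 in KI and at 6.03, 6.20 and 6.34 in WT. The KI arrays were nearly equal and clear of the WT arrays, and Mrpl57 rose by 0.43 (SE 0.105, adjusted p = 0.0470). A dimmer probe set of Mrpl57 changed by 0.067 (SE 0.129), so the probe sets of this gene differed in size, and with their mean the change was 0.25 (adjusted p = 0.190). Mrpl14 has 1 probe set.

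Further large subunit genes named by smallest p did not pass the test. Mrpl4 and Mrpl23 are homologs of bacterial proteins that line or surround the exit tunnel. Mrpl4 was at 6.74, 6.97 and 6.97 in 118Q KI and at 6.56, 6.65 and 6.30 in WT (change 0.39, SE 0.102, adjusted p = 0.0598). Mrpl23 was at 6.92, 6.98 and 7.10 in KI and at 6.67, 6.73 and 6.68 in WT (0.31, SE 0.0917, adjusted p = 0.0956). Both had KI arrays above every WT array. Mrpl20, homolog of the bacterial assembly protein L20, was at 7.02, 7.22 and 7.23 in KI and at 6.70, 6.88 and 6.78 in WT (0.37, SE 0.101, adjusted p = 0.0663). Mrpl41, a mitochondria-specific protein, was at 7.83, 7.75 and 7.68 in KI and at 7.13, 7.51 and 7.12 in WT (0.50, SE 0.138, adjusted p = 0.0748). The groups of both genes were apart, with WT array 2 of Mrpl41 nearest to the KI arrays. At the other end, and named after its values were seen, Mrpl36 was the lowest Mrpl gene at -0.085 (SE 0.125, adjusted p = 0.807), with overlapping groups.

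Of the small subunit genes, Mrps18c (1427901_at), a homolog of bacterial S18 that takes its place in the small subunit, was at 7.14, 7.21 and 7.35 in 118Q KI and at 6.62, 6.86 and 6.83 in 118Q WT. The KI arrays were clear of the WT arrays, and Mrps18c rose by 0.46 (SE 0.112, adjusted p = 0.0455). Its relatives moved less: Mrps18a and Mrps18b, named after their values were seen, were at 0.17 each in the same comparison, short of the threshold. Mrps7, the homolog of S7 that nucleates the head of the small subunit in bacteria, was at 6.27, 6.47 and 6.35 in KI and at 5.94, 6.05 and 6.10 in WT. Its change of 0.34 (SE 0.0930, adjusted p = 0.0733) missed the threshold although the groups did not overlap. Mrps9, the lowest Mrps gene and also named after its values were seen, was at -0.075 (SE 0.171, adjusted p = 0.885).

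The 118Q calls rested on single arrays. The count of 3 became 12 without KI array 1, 2 without WT array 2, 1 without WT array 1, and 0 without KI array 2, KI array 3 or WT array 3, and it was 0 with RNA quality as a covariate. The median change of the Mrpl genes stayed between 0.17 and 0.25 over the same omissions, and that of the Mrps genes between 0.12 and 0.23.

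**Figure D2:**
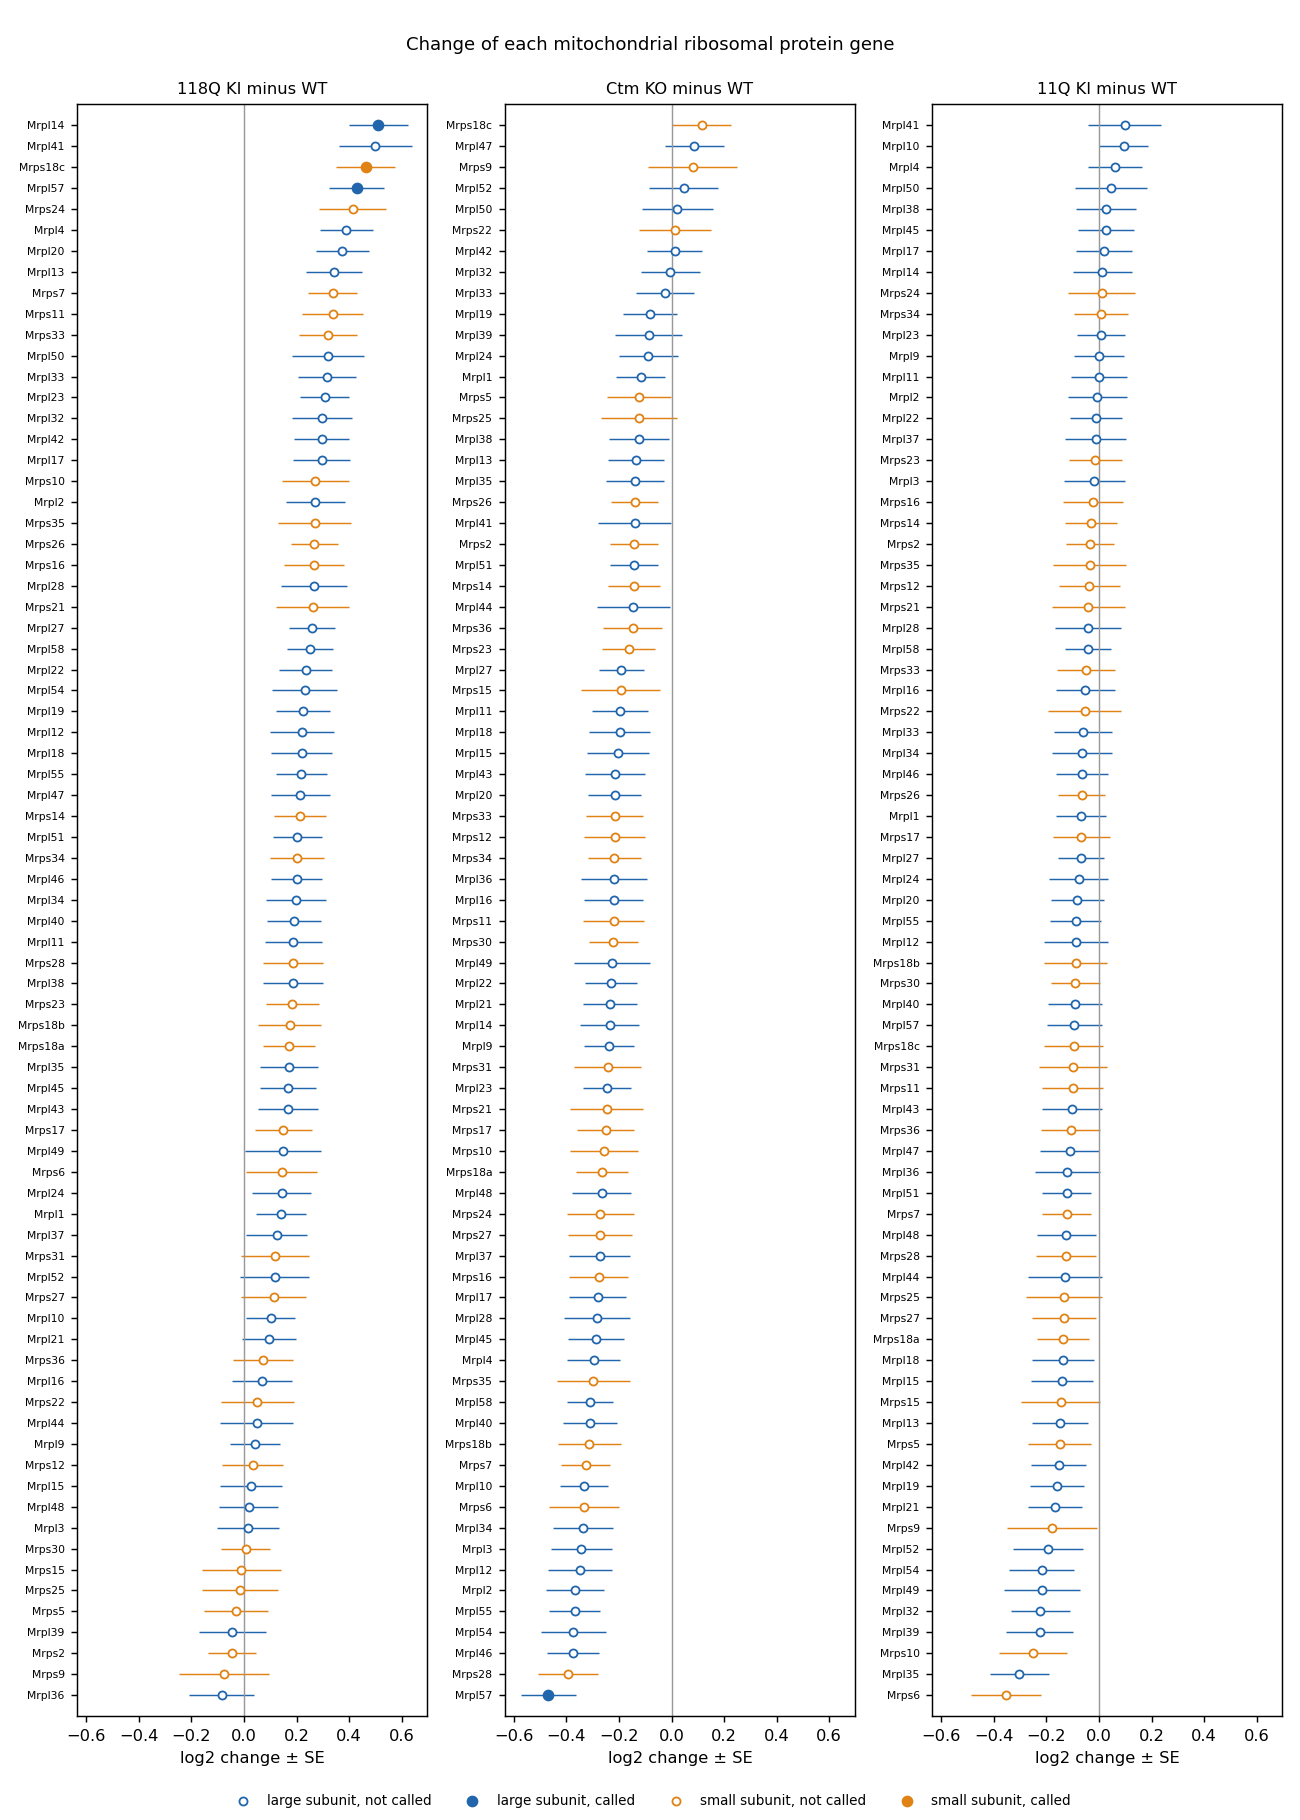
Log2 change, mutant minus WT, of each of the 76 genes in the 118Q, Ctm and 11Q lines, sorted within each panel; bars are the SE of the model, blue marks Mrpl and orange Mrps genes, and filled points passed the test at an adjusted p under 0.05. Most points lie right of 0 in the 118Q panel (69 of 76) and left of 0 in the Ctm panel (69 of 76).

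In the Ctm line 1 of the 76 members passed the test, and it was lower in KO: Mrpl57. Over all genes 0.0934% were called lower and 0.835% higher (limma). At an unadjusted p under 0.05, 35 members were lower and 0 higher, against 7.29% and 4.72% of all genes. The change was negative in 69 of the 76 members and positive in 7, against 64.4% and 35.6% of all genes, and the KO arrays lay wholly below the WT arrays in 47 members and wholly above in 0, against 15.1% and 6.19% of all genes. The Mrpl genes had 43 of 47 negative changes and a median of -0.22, and the Mrps genes 26 of 29 negative changes and a median of -0.22. The median was -0.060 over all genes and -0.087 over the brighter 50%.

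Mrpl57 was at 5.95, 5.83 and 5.87 in Ctm KO and at 6.37, 6.17 and 6.51 in Ctm WT. No KO array reached the lowest WT array, and Mrpl57 fell by 0.47 (SE 0.105, adjusted p = 0.0388), the opposite direction to its change in the 118Q line. With the mean of its probe sets the Ctm change was -0.31 (adjusted p = 0.119). Mrpl46, another mitochondria-specific protein, was at 5.80, 5.82 and 5.71 in KO and at 6.14, 6.12 and 6.19 in WT (-0.37, SE 0.0977, adjusted p = 0.0784). Mrpl55, the homolog of bacterial L31, was at 5.27, 5.15 and 5.25 in KO and at 5.54, 5.47 and 5.77 in WT (-0.37, SE 0.0969, adjusted p = 0.0812). Both were wholly lower in KO and both missed the threshold.

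Mrpl10, which forms the base of the stalk where translation factors bind, was at 6.00, 5.93 and 5.84 in Ctm KO and at 6.26, 6.19 and 6.32 in Ctm WT (-0.33, SE 0.0923, adjusted p = 0.102). Mrpl58, a hydrolase that frees stalled ribosomes and is built into the large subunit, was at 6.67, 6.59 and 6.52 in KO and at 6.95, 6.83 and 6.92 in WT (-0.31, SE 0.0875, adjusted p = 0.109). Mrpl2, the homolog of the bacterial protein next to the peptidyl transferase centre, was at 6.13, 6.08 and 6.01 in KO and at 6.47, 6.27 and 6.58 in WT (-0.37, SE 0.112, adjusted p = 0.143). In each of them the highest KO array was below the lowest WT array. With the WT arrays of the 118Q and 11Q lines as control the change of Mrpl10 was -0.10 and that of Mrpl58 -0.20, and with the mean of its probe sets that of Mrpl58 was -0.16. In the small subunit, Mrps7 was at 5.73, 5.66 and 5.64 in KO and at 5.91, 5.96 and 6.12 in WT (-0.33, SE 0.0930, adjusted p = 0.111). Mrps28 was at 5.40, 5.42 and 5.31 in KO and at 5.73, 5.59 and 5.99 in WT (-0.39, SE 0.115, adjusted p = 0.118). These groups too did not overlap, with WT array 3 the highest. The highest changes in this line, at 0.11 (SE 0.112) for Mrps18c and 0.087 (SE 0.112) for Mrpl47, had overlapping groups and did not pass the test.

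The Ctm call was kept without WT array 2 and lost in each of the other omissions of 1 array, with adjusted p values of 0.0459 to 0.307, and it was lost with RNA quality as a covariate. Without WT arrays 2 and 3 together the medians were -0.18 for the Mrpl genes and -0.16 for the Mrps genes. This leaves WT array 1 alone in its group, so no count of calls is given for it.

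The plot of levels on each array shows the named genes in all 6 groups. In Mrpl57 and Mrps7 the 118Q KI arrays were the highest and the Ctm KO arrays the lowest of the 18. Mrps18c differed from them, since its Ctm KO arrays were not below their WT littermates.

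**Figure D3:**
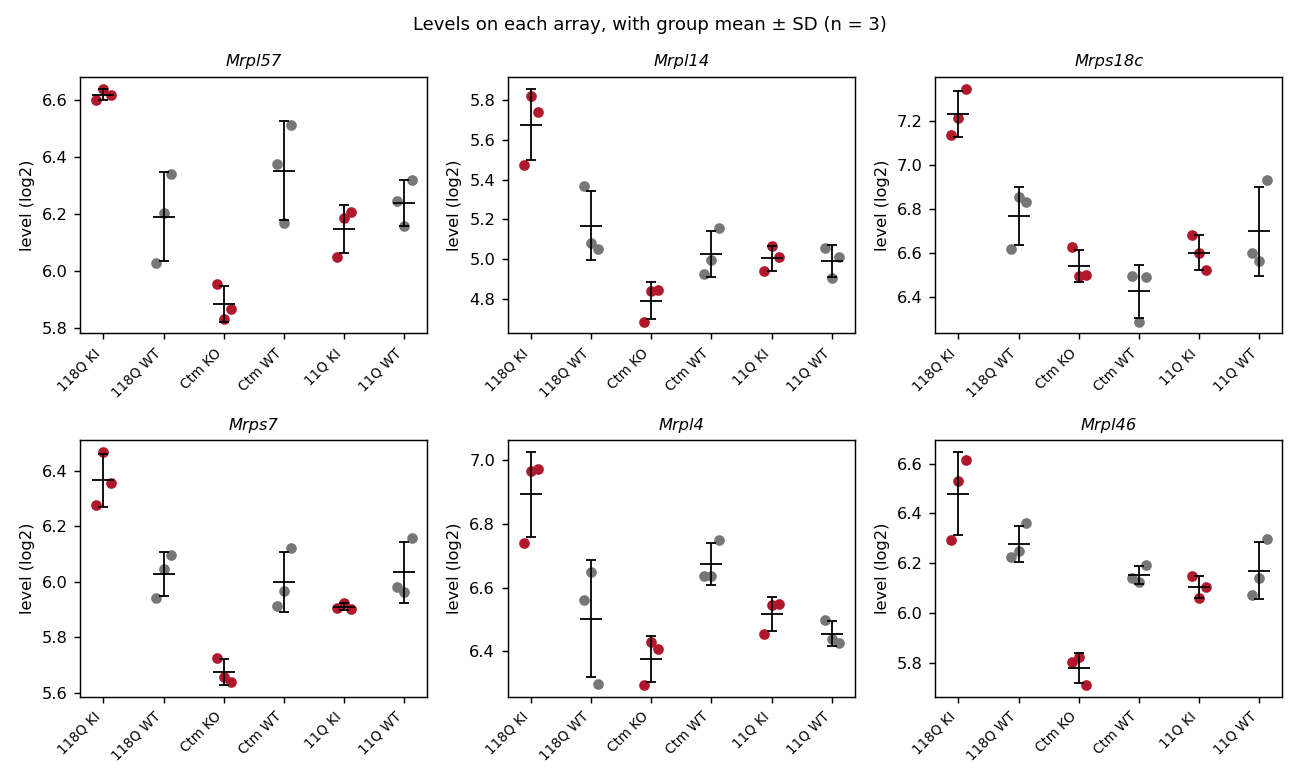
Level (log2) of 6 members on each of the 18 arrays, by group; points are arrays, red mutant and grey WT, horizontal bars the group means and whiskers the SD (n = 3). The 118Q KI points lie above their WT points in 5 of the 6 genes, and the Ctm KO points below theirs in 5 of the 6, the exception being Mrpl46 in the first line and Mrps18c in the second.

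In the 11Q line 0 of the 76 members passed the test, as did 0% of all genes in either direction (limma). At an unadjusted p under 0.05, 2 members were lower, Mrpl35 and Mrps6, and 0 higher, against 3.22% and 2.27% of all genes. The change was negative in 63 of the 76 members and positive in 13, against 54.3% and 45.7% of all genes. The KI arrays lay wholly below WT in 7 members and wholly above in 1, against 6.12% and 4.14% of all genes, so the share of members apart from their littermates was not far from that of all genes. The median change was -0.078 for the Mrpl genes and -0.090 for the Mrps genes, against -0.017 over all genes and -0.037 over the brighter 50%.

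Mrpl35, the homolog of bacterial L35, was at 5.70, 5.77 and 5.68 in 11Q KI and at 5.85, 6.02 and 6.18 in 11Q WT (-0.30, SE 0.111, adjusted p = 0.876). Mrps6, the homolog of bacterial S6, was at 6.11, 6.22 and 6.29 in KI and at 6.42, 6.40 and 6.86 in WT (-0.35, SE 0.135, adjusted p = 0.876). Both had KI arrays below every WT array, with WT array 3 the highest. Mrps10, the homolog of S10, was at 5.60, 5.79 and 5.59 in KI and at 5.82, 5.83 and 6.08 in WT (-0.25, SE 0.129, adjusted p = 0.876). Its gap between the groups was narrow. With the mean of their probe sets Mrpl35 was at -0.17 and Mrps10 at -0.16, and Mrps10 was at -0.41 with choroid plexus markers as a covariate. Changes of Mrpl32, Mrpl39, Mrpl54, Mrpl21 and Mrpl19, the other members named by smallest p here, ran between -0.22 and -0.16 with overlapping groups and adjusted p values of 0.876. Without 11Q WT array 3, the median changes were -0.0057 for the Mrpl genes and -0.0048 for the Mrps genes. With the choroid plexus markers as a covariate, which averaged 4.06 in 11Q KI and 6.34 in 11Q WT, they were -0.14 and -0.15.

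The change of 12 members differed between the 118Q and Ctm lines, 10 of the large and 2 of the small subunit, all of them more positive in the 118Q line. Over all genes 1.84% differed in that direction and 1.09% in the other (limma). The difference of the changes, 118Q minus Ctm, was positive in 75 of the 76 members and negative in 1, against 63% and 37% of all genes. Its median was 0.39, against 0.089 over all genes. At an unadjusted p under 0.05, 50 members were higher and 0 lower, against 13.2% and 5.79% of all genes. Mrpl57 had the largest difference at 0.90 (SE 0.148, adjusted p = 0.0145), or 0.56 with the mean of its probe sets (adjusted p = 0.0297). It was followed by Mrpl14 at 0.75 (SE 0.159, adjusted p = 0.0253), Mrpl4 at 0.69 (SE 0.144, adjusted p = 0.0239), Mrps24 at 0.68 (SE 0.180, adjusted p = 0.0475) and Mrps7 at 0.66 (SE 0.132, adjusted p = 0.0195). Mrps24 is the homolog of bacterial S3 at the entry of the message channel. Mrpl2, Mrpl20, Mrpl55, Mrpl17, Mrpl46, Mrpl58 and Mrpl23 made up the rest, with differences of 0.55 to 0.64. Mrps24 and Mrpl17 are named here as part of this count and were chosen after their values were seen. Mrps18c, called in the 118Q line, had a difference of 0.35 (SE 0.159, adjusted p = 0.241), since its changes were 0.46 in the 118Q line and 0.11 in the Ctm line. Only Mrps9 had a negative difference, at -0.16 (SE 0.242).

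Both a positive change in the 118Q line and a negative one in the Ctm line were found in 63 of the 76 members, 41 of 47 Mrpl and 22 of 29 Mrps genes, against 40.7% of all genes. The 118Q KI arrays wholly above WT and the Ctm KO arrays wholly below WT were found in 21 members, 14 Mrpl and 7 Mrps genes, against 3.3% of all genes. Across the 76 genes the sizes of the changes in the 118Q and Ctm lines had a Pearson correlation of -0.095, a description over genes that share arrays, so the members with the largest changes in one line were not in general those of the other. The count of 12 was 1 without Ctm WT array 3 and 24 without 118Q KI array 1. It was 2 without 118Q KI array 3, 118Q WT array 3 or Ctm KO array 1, 4 without 118Q KI array 2, Ctm KO array 2 or Ctm KO array 3, and 5 without 118Q WT array 1. It was 1 with RNA quality as a covariate.

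**Figure D4:**
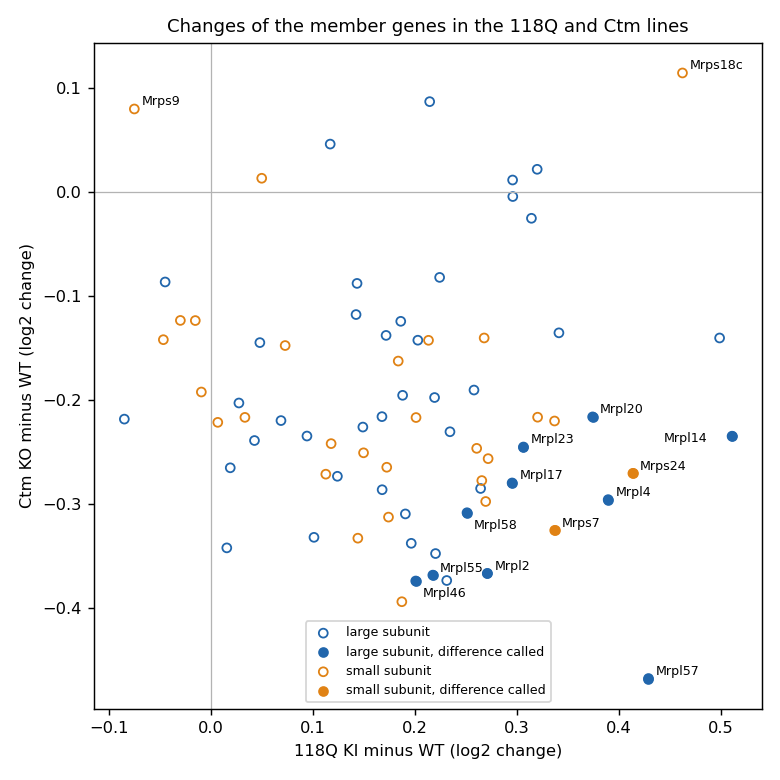
Log2 change of each of the 76 genes in the 118Q line (horizontal axis, KI minus WT) and in the Ctm line (vertical axis, KO minus WT); blue circles are Mrpl and orange circles Mrps genes, and filled circles are the 12 genes whose change differed between the lines. The lower right quadrant holds 63 of the 76 genes, with Mrpl57 the lowest point and Mrpl14 the farthest right, and Mrps18c stands apart at the upper right.

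The comparisons with the 11Q line gave fewer differences. Between the 118Q and 11Q lines 0 members differed by limma's adjusted p, as did 0% of all genes. The change was more positive in the 118Q line in 75 of 76 members, against 58% of all genes. At an unadjusted p under 0.05, 26 members were higher and 0 lower, against 7.36% and 2.97% of all genes. The smallest p values belonged to Mrpl57 (0.52, SE 0.148, adjusted p = 0.277), Mrps18c (0.56, SE 0.159, adjusted p = 0.277) and Mrps7 (0.46, SE 0.132, adjusted p = 0.277). Between the Ctm and 11Q lines 0 members and 0% of all genes differed by adjusted p. The change was more negative in the Ctm line in 61 of 76 members, against 58.4% of all genes. At an unadjusted p under 0.05, 6 members were lower and 0 higher, against 4.09% and 4.39% of all genes. The smallest p values were those of Mrpl10 (-0.43, SE 0.131, adjusted p = 0.272), Mrpl57 (-0.37, SE 0.148, adjusted p = 0.474) and Mrpl4 (-0.36, SE 0.144, adjusted p = 0.486).

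Members with a bacterial homolog were also read apart from mitochondria-specific members, a grouping made after their values were seen and given without a test. The 29 large subunit proteins with a bacterial homolog had median changes of 0.22 in the 118Q line, -0.22 in the Ctm line and -0.067 in the 11Q line. The 18 mitochondria-specific ones had medians of 0.19, -0.22 and -0.098. In the small subunit the 18 proteins with a bacterial homolog had medians of 0.18, -0.25 and -0.098, and the 11 mitochondria-specific ones 0.12, -0.22 and -0.066. All 4 groups were thus positive in the 118Q line and negative in the Ctm line. Counting Mrps18a and Mrps30 with the large subunit and leaving out Mrps36 gave medians of 0.20 and -0.22 for the large subunit and 0.19 and -0.22 for the small subunit in the 118Q and Ctm lines.

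Between the WT littermates of the 3 lines, a smaller share of the members than of all genes differed. An F test over the WT groups called 3 of 76, Mrpl39, Mrpl35 and Mrpl47 (adjusted p = 0.0179, 0.0286 and 0.0496, limma), against 9.78% of all genes, and 13 members had an unadjusted p under 0.05, against 24.8% of all genes. Mrpl39, a mitochondria-specific protein, averaged 7.58 ± 0.163 in 118Q WT, 6.99 ± 0.0980 in Ctm WT and 7.36 ± 0.248 in 11Q WT (SD, n = 3 each). Mrpl35 averaged 6.20 ± 0.108, 5.73 ± 0.161 and 6.02 ± 0.167, and Mrpl47, the homolog of bacterial L29, 5.40 ± 0.117, 4.99 ± 0.145 and 5.30 ± 0.160 in the same order. In all of them the Ctm WT group was lowest. Mrps18c (adjusted p = 0.105) and Mrpl50 (adjusted p = 0.112), next by p, also had their lowest WT mean in the Ctm line, at 6.43 ± 0.119 and 4.67 ± 0.237. Of Mrpl57 the WT means were 6.19 ± 0.157 in the 118Q line, 6.35 ± 0.174 in the Ctm line and 6.24 ± 0.0810 in the 11Q line (adjusted p = 0.566). The count of 3 was 0 without Ctm WT array 2, and 1 without Ctm WT array 3 or 118Q WT array 3.

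The 76 members had 156 probe sets in all, and 42 members had several. All probe sets of a gene had the same sign in 24 of the 42 genes in the 118Q line, 26 in the Ctm line and 20 in the 11Q line. The 80 probe sets not used above had median changes of 0.067, -0.15 and -0.089, against 0.19, -0.22 and -0.085 for the 76 in use. They kept the directions, with smaller values in the 118Q and Ctm lines. Over all genes the medians in those 2 lines were 0.040 and -0.060, so the 118Q value was not far from that of all genes. Tested each by itself and adjusted over all probe sets, 0 were called in the 118Q line, where Mrpl14, Mrps18c and Mrpl57 had adjusted p values of 0.0511, 0.0699 and 0.0729 (limma). In the Ctm line 2 were called lower, the bright probe set of Mrpl57 and a dim one of Mrps26 (1441053_at, -0.58, SE 0.124, adjusted p = 0.0337), named here after its values were seen. The brighter probe set of Mrps26 changed by -0.14 (SE 0.0935).

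Other genes of mitochondrial translation and of its surroundings were read from 7 lists with 91 measured genes of 105 entries. Only 1 of the 91 passed the test within any line. The difference of the changes, 118Q minus Ctm, was called higher in 3 of 16 genes of import, matrix chaperones and proteases. It was also called higher in 1 of 12 translation factors, 1 of 19 aminoacyl-tRNA synthetases and 1 of 5 mitoribosomal proteins under other symbols. In each of the other lists 0 were called higher, and 0 were called lower in any list. Over all genes 1.84% were called higher and 1.09% lower (limma). Gadd45gip1, which encodes a protein of the large subunit of the mitochondrial ribosome under another symbol, was at 4.61, 4.67 and 4.33 in Ctm KO and at 5.94, 5.75 and 6.08 in Ctm WT. Its groups were far apart, and it fell by 1.39 (SE 0.159, adjusted p = 0.00128). In 11Q KI it was at 4.86, 4.99 and 4.88, against 5.97, 5.65 and 5.84 in 11Q WT. That change of -0.91 (SE 0.159, adjusted p = 0.130) also left the groups apart but missed the threshold. In 118Q KI it was at 5.47, 5.72 and 5.30, against 5.92, 5.21 and 5.50 in WT, with overlap and a change of -0.045 (SE 0.159), whose sign turned with the mean of its probe sets (0.13), without 118Q KI array 3 (0.054) and without 118Q WT array 1 (0.15). With the mean of its probe sets the Ctm change was -0.35 (adjusted p = 0.0659) and the 11Q change -0.19 (adjusted p = 0.893). Gadd45gip1 lies on the same chromosome as Cacna1a, with 6 protein-coding genes between them in RefSeq order. Of the 76 members 2 lie on that chromosome, and 0 lie within 20 protein-coding genes of Cacna1a. The part of position in any of these changes was not tested.

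The list named mitoribosomal proteins under other symbols had 5 measured genes, among them Gadd45gip1 and Oxa1l. Oxa1l encodes an insertase of the inner membrane and not a ribosomal protein. The 5 genes had median changes of 0.085, -0.24 and -0.046 in the 118Q, Ctm and 11Q lines. The 20 genes of mitoribosome assembly and rRNA modification had medians of 0.098, -0.14 and -0.056 in the same order of lines. Malsu1, an assembly factor of the large subunit, had the smallest p of that list at -0.34 in the Ctm line (SE 0.111, adjusted p = 0.190), or -0.15 with the mean of its probe sets. The 19 aminoacyl-tRNA synthetases had medians of 0.091, -0.15 and -0.031, with Fars2, the enzyme for phenylalanine, at -0.37 in the Ctm line (SE 0.0961, adjusted p = 0.0732). The 16 genes of import, matrix chaperones and proteases had medians of 0.14, -0.15 and -0.066, with Timm44, part of the import motor, at 0.33 in the 118Q line (SE 0.0876, adjusted p = 0.0660).

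Of the remaining lists, the 12 translation factors had medians of -0.016, -0.070 and -0.027, with Slirp, the RNA-binding partner of Lrpprc, at 0.39 in the 118Q line (SE 0.103, adjusted p = 0.0598). The 10 genes of mitochondrial DNA replication and transcription had medians of 0.063, -0.062 and -0.11, with Tefm, the transcription elongation factor, at 0.61 in the 118Q line (SE 0.178, adjusted p = 0.0870). The 9 nuclear regulators had medians of -0.054, -0.063 and 0.056. Among them Gabpa, which encodes the DNA-binding part of the ETS factor GABP, was at 5.95, 6.04 and 5.81 in Ctm KO and at 5.56, 5.59 and 5.49 in Ctm WT. It was wholly higher in KO but short of the threshold (0.39, SE 0.133, adjusted p = 0.210), and its WT means differed between the lines (adjusted p = 0.00237). Set against the WT arrays of the 118Q and 11Q lines, its change was -0.32, and with the mean of its probe sets 0.18. The other members of the 7 lists passed the test in none of the lines.

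**Figure D5:**
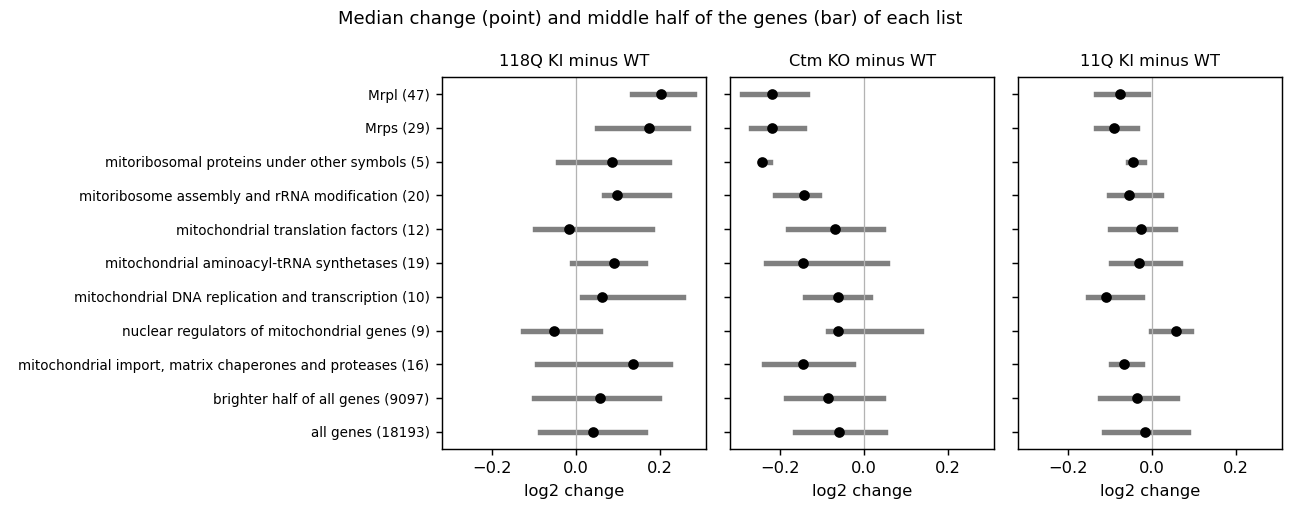
Median log2 change (point) and the middle 50% of the genes (bar) of each list in the 118Q, Ctm and 11Q lines, with the number of genes in brackets. The Mrpl and Mrps genes have the highest medians in the 118Q panel (0.20 and 0.17). In the Ctm panel the lowest medians are theirs (-0.22 and -0.22) and that of the list named mitoribosomal proteins under other symbols (-0.24). That list has 5 genes, with the insertase gene Oxa1l among them.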

How the data were processed

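Affymetrix arrays of total RNA from cerebellum were analysed, 18 in all, 3 in each of 6 groups taken from the sample labels. The authors deposited log2 values for each probe set, made with RMA per the submitters' processing notes; the zero point of that scale is not given in the sources used here. The file held 45101 probe sets, of which 64 were controls. Probe sets were named through the platform annotation, 34945 had 1 symbol, and each of 18193 genes was represented by its probe set with the highest mean over 18 arrays.

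Members and lists were chosen with earlier results of these data known. limma 3.58.1 in R 4.3.3 fitted 1 mean per group over all 18 arrays, followed by eBayes, with Benjamini-Hochberg adjustment over 18193 genes and a threshold of 0.05. Contrasts were mutant minus WT littermates in each line, differences of these changes between lines, and an F test over the WT groups. The script was tested on simulated data. Genes named are the members called in a line, or the 8 with the smallest p where fewer were called, the 3 with the smallest p in each difference, the 5 with the smallest p among WT groups, and from each of 7 pathway lists those called and the 1 with the smallest p; Gadd45gip1 is always named. The text marks any other gene as picked with its values in view.

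Alternatives were averaging the probe sets of a gene, every probe set by itself, the dimmer 50% of genes left out, trended and robust eBayes, array weights, renewed quantile normalisation, RNA quality or choroid plexus markers as a covariate, a replicate block, the arrays of a comparison alone, the 6 WT arrays of the knock-in lines as control, and each array left out. The 9 marker lists covered Purkinje, granule, choroid plexus, microglia, astroglia, oligodendrocyte, endothelial, red blood cell and hindbrain genes. Precision is limited by the number of arrays. Promoter sequences are from RefSeq, build GRCm38.p6.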

Additional observations from a re-analysis of the deposited data

Results flagged for a closer look

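The change differed between the 118Q and Ctm lines in 12 members by the test of the difference itself (limma, adjusted p under 0.05 over all genes). Among the members named by rule, the difference, 118Q minus Ctm, was 0.90 for Mrpl57, 0.75 for Mrpl14, 0.69 for Mrpl4, 0.66 for Mrps7 and 0.64 for Mrpl2. It was 0.59 for Mrpl20, 0.59 for Mrpl55, 0.58 for Mrpl46, 0.56 for Mrpl58 and 0.55 for Mrpl23. In Mrpl57, Mrpl4, Mrpl20, Mrps7, Mrpl23, Mrpl14, Mrpl55 and Mrpl58 the 118Q KI arrays lay wholly above and the Ctm KO arrays wholly below their WT littermates. Of all genes 3.3% did so. These members were picked by their difference on the same arrays, so the separation is no further evidence. The cause of the difference was not tested.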

How the results depend on the processing

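The median changes of Mrpl and Mrps genes kept their sign in each line under every alternative. Some alternatives could not move them and say nothing on this point. Trended and robust eBayes, the replicate block and the arrays of a comparison alone leave each gene's change as it was. Leaving out the dimmer 50% of genes keeps all 76 members. Apart from leaving out 1 array at a time they were 0.15 to 0.25 and 0.15 to 0.21 in the 118Q line, -0.24 to -0.18 and -0.25 to -0.16 in the Ctm line, and -0.14 to -0.025 and -0.15 to -0.031 in the 11Q line. Without 1 array at a time they were 0.17 to 0.25 and 0.12 to 0.23 in the 118Q line, -0.25 to -0.16 and -0.26 to -0.17 in the Ctm line, and -0.11 to -0.0057 and -0.14 to -0.0048 in the 11Q line. The counts of calls did not hold. Calls in the 118Q line, the Ctm line and their difference (3, 1 and 12) became 0, 0 and 1 with RNA quality as a covariate, with the arrays of each comparison alone and with the replicate block, 21, 6 and 35 with array weights, and 8, 6 and 29 without the dimmer 50% of genes. Calls over all genes moved too. They were 280 in the 118Q line and 169 in the Ctm line as reported, and 1740 and 627 with weights, 567 and 307 without dim genes, 37 and 138 with RNA quality, 70 and 177 with the block, and 1579 and 1769 with the 6 WT arrays of the knock-in lines as control. Same-numbered arrays of a line correlated at -0.20 to 0.23 and differently numbered ones at -0.29 to 0.27. With so few arrays this does not settle whether the replicate numbers pair them. The block could not change a median, since each block held 1 mutant and 1 WT array. With every probe set by itself the 118Q and Ctm counts were 0 and 2, with those 6 WT arrays 20 and 22, and with trended, robust eBayes the 118Q count was 6. Leaving out Ctm WT arrays 2 and 3 together was an alternative chosen after seeing the data. It leaves Ctm WT array 1 alone in its group, so its counts of calls are not given. Leaving out 1 array gave 0 to 12 calls in the 118Q line, 0 to 1 in the Ctm line, 1 to 24 for the difference and 0 to 3 for the WT F test. That test gave 6 with array weights, and 0 with the arrays alone or the mean of probe sets.

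Pathway genes called in the 118Q line (0) were 12 with the 6 WT arrays, 7 with weights, 4 without dim genes, 1 with renewed quantile normalisation, 1 with trended eBayes, and 0 to 4 without 1 array. In the Ctm line (1) they were 10, 5 and 3 in the first 3 of these settings, 2 with every probe set and 0 with the mean of probe sets. Gadd45gip1 in the 118Q line (-0.045) was 0.13 with the mean of probe sets and -0.21 to 0.15 without 1 array, and Gabpa in the Ctm line was -0.32 with the 6 WT arrays. Other moves over 1.5 times in named members were in the 11Q line, where Mrps10, Mrpl39, Mrpl54, Mrpl21 and Mrpl19 were at -0.15 to -0.085 with array weights and Mrpl54 at -0.077 with the mean of probe sets, and in the 118Q minus 11Q difference of Mrpl57, 0.27 with that mean. The causes were not tested. With 3 arrays a group, the SE of the members' changes within a line was 0.087 to 0.171.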
